A study of Homo sapiens with 6 samples.

Results

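The tight junction genes described here were the claudins *CLDN1*, *CLDN4*, *CLDN7* and *CLDN12*, the MARVEL-domain proteins *OCLN* and *MARVELD2*, the junctional adhesion molecule *F11R*, and the plaque proteins *TJP1* and *CGN*. They were chosen by gene symbol from the table of read counts, which held 12499 genes, and all 9 of the 9 symbols had a row. HaCaT cells, an immortalized line of human keratinocytes, received lentivirus labeled LV-ATF7, meant to overexpress the transcription factor *ATF7* from its coding sequence in a pLVX-IRES-Puro vector, or a negative control virus labeled LV-NC. Infection lasted 48 h and was followed by 24 h in high glucose (25 mM), so every library came from infected, glucose-treated cells and no uninfected or low-glucose group was sequenced with them. Each group had 3 libraries. The labels do not say whether these were separate cultures, so p-values measure the spread between these libraries, which may be technical.

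The targeted gene went against the labels. *ATF7* was at 50.6, 46.4 and 52.2 CPM (read counts scaled to library size) under the label LV-NC, and at 21.9, 25.7 and 28.0 CPM under the label LV-ATF7. The log2 fold change of *ATF7* came to -0.98 (SE 0.12, edgeR quasi-likelihood test, adjusted p = 1.89e-04), and 43.8% of its exon bases were shared with other annotated genes. Every direction below is therefore that of the libraries labeled LV-ATF7 over those labeled LV-NC, as labeled. Whether the labels were exchanged was not tested. If they were, every rise and fall below would turn, with *CLDN1* then the largest fall and *OCLN* the largest rise among the members. The study also measured *ATF7* mRNA and protein in infected HaCaT cells by qRT-PCR and western blotting, and reports overexpression with LV-ATF7. Those measurements were not analysed here, and the counts as labeled go the other way. Totals ran from 16686472 to 20562768 counts per library. LV-NC replicate 1 stood apart from its group, with a chi-square per gene of 75.4 and 67.6 against replicates 2 and 3, compared with 3.72 between those replicates. Keratinocyte markers were present, with 14 of 14 in the table and a summed level of 2774 to 3619 CPM in LV-NC and 9357 to 10123 CPM in LV-ATF7. Simple epithelial markers (6 of 6 in the table) also differed in their sum, at 1261 to 2831 CPM and 7277 to 8222 CPM. Of these, 4 were called higher, *EPCAM* was called lower (log2 fold change -0.72, edgeR adjusted p = 5.88e-04) and *KRT8* was not called. *KRT19*, at 402 and 4065 CPM on average, made up a large part of that sum in LV-ATF7. Of the 14 keratinocyte markers 11 were called higher and 1, the basal keratin *KRT14*, lower. Over all genes tested, 34.7% were called higher and 32.9% lower. *KRT5*, the keratin that pairs with *KRT14*, was at 266 ± 144 CPM in LV-NC and 3354 ± 233 CPM in LV-ATF7. *KRT5* made up a large part of the keratinocyte sum in LV-ATF7 but not in LV-NC. *KRT14* was at 0.375 to 12.5 CPM in LV-NC and 1.38 to 1.82 CPM in LV-ATF7, whereas *TP63*, the basal keratinocyte transcription factor, was at 15.5 ± 2.84 and 231 ± 10.8 CPM (SD, n = 3). Fibroblast markers (3 of 8 in the table) summed to 35.1 to 42.7 CPM in LV-NC and 17.4 to 21.8 CPM in LV-ATF7, and monocyte and macrophage markers (3 of 7) to 5.57 to 8.13 and 9.38 to 12.7 CPM. Members of these lists moved in opposite directions. *COL1A1* was at 36.7 and 16.8 CPM on average and *DCN* at 0.553 and 2.67 CPM, while *CD14* was at 1.61 and 8.17 CPM and *CSF1R* at 2.79 and 0.611 CPM. The melanocyte list had 1 of 5 markers in the table, at 1.87 to 2.20 and 3.42 to 6.03 CPM. The endothelial list had 2 of 5, *CDH5* and *VWF*, which summed to 1.12 to 5.50 CPM in LV-NC and 84.6 to 89.9 CPM in LV-ATF7. *PECAM1*, *KDR*, *TEK*, *PTPRC*, *COL1A2*, *COL3A1* and *MLANA*, defining markers of these lists, had no row. The part of these marker shifts in the results below was not tested. In bulk RNA, fewer cells of a type and less RNA per cell cannot be told apart.

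Tight junctions seal the space between neighboring epithelial cells. Claudins polymerize into strands that set which ions and solutes pass, occludin and tricellulin join the strands at bicellular and tricellular contacts, and scaffold proteins beneath the membrane tie the strands to actin. In the epidermis the functional seal lies in the granular layer, where claudin-1 is required for the barrier against water loss.

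At the level of the whole set, 2 members rose, 5 fell and 2 did not pass the test. That is 7 of 9 called, beside 67.6% of all 12462 genes tested (34.7% called higher and 32.9% called lower). All 9 members passed the filter on low counts. Groups did not overlap for 7 of 9 members, beside 72.7% of all genes. The median log2 fold change of the members was -0.23 and that of all genes 0.00016. With a fold change of at least 1.5 also required, 4 members were called, beside 52.9% of all genes. These shares were near the background, so the counts alone set the members apart from no other genes. *CLDN1* was the exception in size. Its absolute log2 fold change stood at the 95.9th percentile of genes tested, compared with 76.4 for *OCLN*, 68.0 for *TJP1*, 51.1 for *MARVELD2* and 37.1 or less for the other members.

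*CLDN1*, the principal claudin of the epidermis (ENSG00000163347, chr3:190305701-190322475, minus strand, GRCh38), was at 315, 206 and 211 CPM in LV-NC and at 2239, 2179 and 2099 CPM in LV-ATF7. The lowest LV-ATF7 library was far above the highest LV-NC library. *CLDN1* rose 8.89-fold, from 244 ± 61.7 to 2172 ± 70.3 CPM (SD, n = 3), with a log2 fold change of 3.15 (SE 0.19, edgeR adjusted p = 5.69e-06). In all, 364 of the genes tested had a larger log2 fold change. LV-NC replicate 1 held 1.51 times the mean *CLDN1* level of the other two control libraries.

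*CLDN4*, a claudin of the upper living layers of the epidermis and the receptor of a clostridial enterotoxin (ENSG00000189143, chr7:73799542-73832693, plus strand), was at 357, 602 and 608 CPM in LV-NC and 461, 468 and 554 CPM in LV-ATF7. The groups overlapped, because LV-NC replicate 1 was the lowest of all 6 libraries and the other control libraries were the highest. Group means were 523 ± 143 and 494 ± 51.6 CPM, and the log2 fold change of -0.08 (SE 0.20, edgeR adjusted p = 0.742) did not pass the test. Without LV-NC replicate 1 the log2 fold change was -0.31 (edgeR adjusted p = 2.24e-04), so that library decides the call on *CLDN4*.

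*CLDN7*, which also occurs along the lateral membrane and binds EpCAM (ENSG00000181885, chr17:7259903-7263983, minus strand), was at 232, 272 and 281 CPM in LV-NC and 348, 354 and 383 CPM in LV-ATF7. The groups did not overlap, and *CLDN7* rose 1.38-fold (log2 fold change 0.47, SE 0.10, edgeR adjusted p = 0.00446). Of its exon bases, 12.3% were shared with *AC003688.1* and *ELP5*. *CLDN12*, a claudin without the usual PDZ-binding tail (ENSG00000157224, chr7:90383721-90513402, plus strand), was at 158, 162 and 161 CPM in LV-NC and 143, 141 and 127 CPM in LV-ATF7. It fell 1.17-fold, from 160.1 ± 2.22 to 137 ± 8.83 CPM (log2 fold change -0.23, SE 0.086, edgeR adjusted p = 0.0449). That call lay close to the threshold, was lost without any single LV-ATF7 library or without LV-NC replicate 2 or 3 (edgeR adjusted p from 0.0709 to 0.106), and 16.3% of the exon bases were shared with 4 other genes. The 4 claudins thus comprised a large rise, a small rise, a small fall and a gene with overlapping groups.

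**Figure D1:**
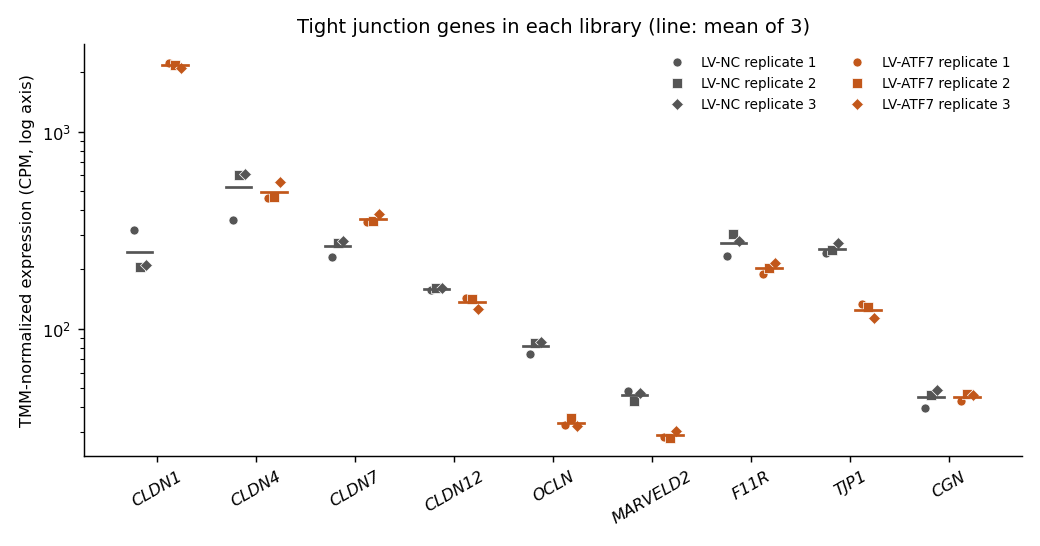
Level of each of the 9 tight junction genes (CPM, log axis) in every library, LV-NC in gray and LV-ATF7 in orange, with a symbol for each library and a line for the mean of 3. *CLDN1* stands at 2099 to 2239 CPM in the LV-ATF7 libraries and at 206 to 315 CPM in the LV-NC libraries, while the groups of *CLDN4* and *CGN* overlap.

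Both MARVEL-domain members fell. *OCLN*, which encodes occludin (ENSG00000197822, chr5:69492292-69558104, plus strand), was at 74.3, 84.5 and 85.3 CPM in LV-NC and 32.7, 35.2 and 32.1 CPM in LV-ATF7. All control libraries were above all LV-ATF7 libraries, and *OCLN* fell 2.44-fold (log2 fold change -1.29, SE 0.10, edgeR adjusted p = 1.87e-05), the largest fall among the members. A copy of part of the transcript, *OCLNP1*, shares 99.7% identity over 679 bases, so reads could be split between them. *MARVELD2*, which encodes tricellulin, the MARVEL protein of tricellular contacts (ENSG00000152939, chr5:69415065-69444330, plus strand), was at 48.1, 43.2 and 47.4 CPM in LV-NC and 28.1, 28.0 and 30.2 CPM in LV-ATF7. It fell 1.61-fold (log2 fold change -0.68, SE 0.098, edgeR adjusted p = 4.28e-04), again with no overlap between groups.

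*F11R*, which encodes JAM-A, an immunoglobulin-like adhesion protein that recruits polarity proteins to the junction (ENSG00000158769, chr1:160995211-161021348, minus strand), was at 234, 301 and 279 CPM in LV-NC and 190.3, 203 and 217 CPM in LV-ATF7. The groups did not overlap, although LV-NC replicate 1 was only slightly above the highest LV-ATF7 library. *F11R* fell 1.33-fold (log2 fold change -0.42, SE 0.12, edgeR adjusted p = 0.0125). The call was lost without LV-ATF7 replicate 1 (edgeR adjusted p = 0.0579), and *AL591806.3* on the same strand shares 36.6% of the exon bases.

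*TJP1*, which encodes the scaffold ZO-1 that binds claudin tails and actin (ENSG00000104067, chr15:29699367-29968865, minus strand), was at 242, 249.9 and 274 CPM in LV-NC and 133, 129 and 113 CPM in LV-ATF7. Each control library exceeded each LV-ATF7 library, and *TJP1* fell 2.04-fold, from 255 ± 16.2 to 125 ± 10.5 CPM (log2 fold change -1.03, SE 0.10, edgeR adjusted p = 5.68e-05). *CGN*, which encodes cingulin, a plaque protein that links ZO proteins to actomyosin (ENSG00000143375, chr1:151510510-151538692, plus strand), was at 39.6, 46.4 and 48.9 CPM in LV-NC and 42.8, 46.6 and 46.1 CPM in LV-ATF7. The LV-ATF7 values lay within the control range, and the log2 fold change of 0.0072 (SE 0.11, edgeR adjusted p = 0.957) did not pass the test.

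**Figure D2:**
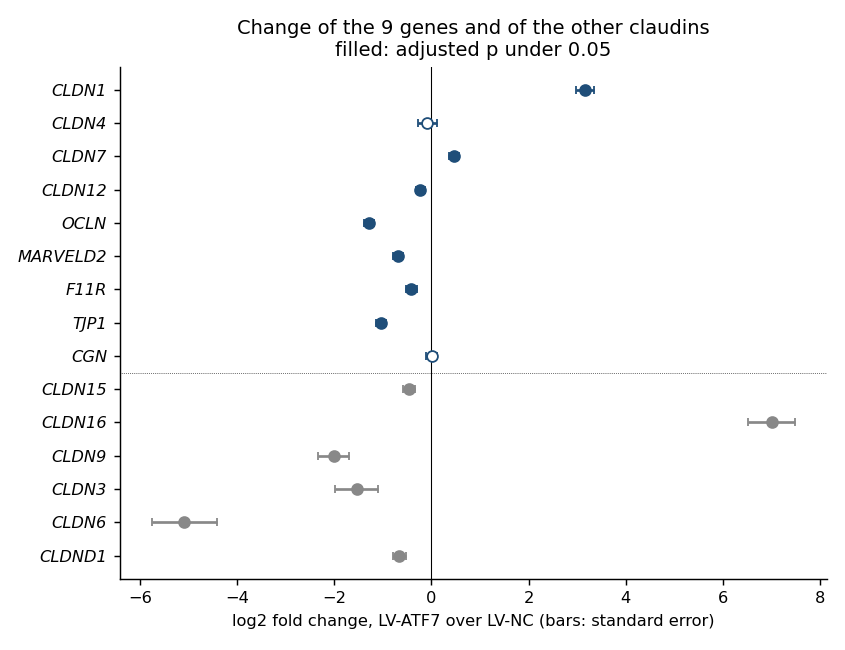
Log2 fold change (libraries labeled LV-ATF7 over those labeled LV-NC) of the 9 genes and, below the dotted line, of 6 other claudin-family genes. Bars give the SE derived from the edgeR test statistic, and filled points have an adjusted p under 0.05. *CLDN1* stands at 3.15 and *CLDN7* at 0.47, *CLDN4* and *CGN* lie at -0.08 and 0.0072, and the other 5 genes range from -0.23 to -1.29.

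Levels were compared between genes after division by exon length (CPM per kilobase), taken as all annotated exons of a gene, merged. This length was 4702 bases for *CLDN4* and 2492 bases for *CLDN7*. Transcripts that use only part of these exons would be set too low, so the order between genes depends on this choice. In LV-NC, *CLDN4* (111 ± 30.4) and *CLDN7* (105 ± 10.4) were highest and overlapped each other. *CLDN1* (66.7 ± 16.8) and *F11R* (53.6 ± 6.72) followed and also overlapped each other. *CLDN1* overlapped *CLDN4* too, and in LV-NC replicate 1 it was the higher of the pair (86.1 against 76.0 CPM per kilobase). Overlap was also seen for *CLDN12* (23.7 ± 0.329) and *TJP1* (22.7 ± 1.44). The lowest levels were those of *OCLN* (12.0 ± 0.905), *MARVELD2* (8.62 ± 0.488) and *CGN* (6.80 ± 0.723 CPM per kilobase). In LV-ATF7 no neighbors in the order overlapped, and *CLDN1* led at 593 ± 19.2 CPM per kilobase, above *CLDN7* (145 ± 7.42), *CLDN4* (105 ± 11) and *F11R* (40.2 ± 2.61). *CLDN12* (20.3 ± 1.31), *TJP1* (11.1 ± 0.933), *CGN* (6.83 ± 0.311) and *MARVELD2* (5.37 ± 0.233) came next. *OCLN* moved to the last place, at 4.93 ± 0.245 CPM per kilobase (SD, n = 3 throughout).

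The make-up of the claudin message was summarized as each claudin's percent of the summed CPM per kilobase over the 9 claudins with a row. *CLDN1* made up 27, 16.1 and 16.2% of the sum in LV-NC and 67.9, 67.3 and 64.3% in LV-ATF7. Its share was 46.7 percentage points higher in LV-ATF7, and every LV-ATF7 library was above every control library (two-sided exact permutation p = 0.10, the lowest that 3 against 3 libraries can give). *CLDN4* made up 23.9, 36.6 and 36.4% in LV-NC and 10.9, 11.3 and 13.2% in LV-ATF7, a difference of -20.5 percentage points (exact p = 0.10). *CLDN7* made up 29.2, 31.2 and 31.7% in LV-NC and 15.5, 16.1 and 17.2% in LV-ATF7, a difference of -14.4 points (exact p = 0.10), although its own level rose. *CLDN12* differed by -4.70 points (exact p = 0.10). The summed claudin level was 341 ± 20.0 CPM per kilobase in LV-NC and 892 ± 7.56 in LV-ATF7, a ratio of 2.61 (exact p = 0.10). Without *CLDN1* the sums were 275 ± 36.7 and 299 ± 17.2, a ratio of 1.09 with overlapping groups (exact p = 0.60). Nearly the whole difference in the sum was therefore that of *CLDN1*. The shares are not independent of each other, since they add up to the same total.

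**Figure D3:**
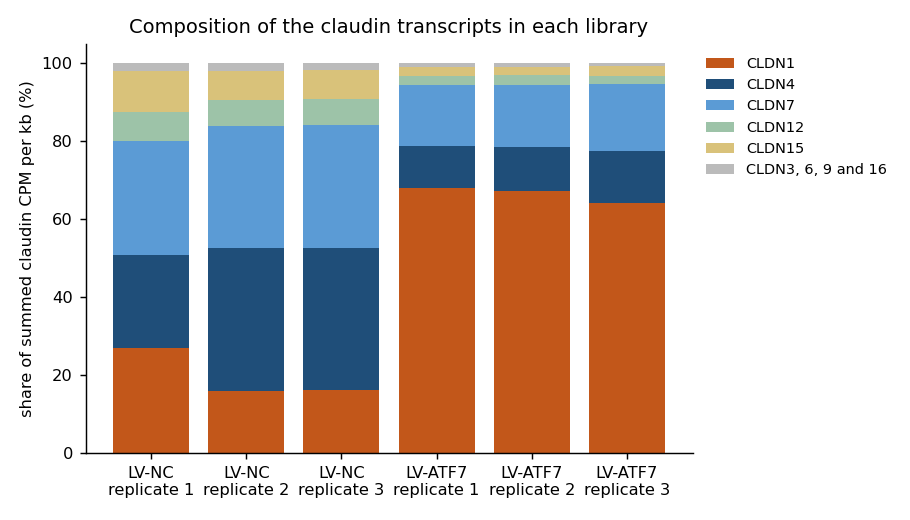
Share of each claudin in percent of the summed claudin level (CPM per kilobase) in each of the 6 libraries. *CLDN1* takes 64.3 to 67.9% in the LV-ATF7 libraries and 16.1 to 27% in the LV-NC libraries, where *CLDN4* and *CLDN7* are of similar size or larger.

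Ratios of CPM between members within a library do not depend on the scaling between libraries, and gene length drops out of their difference between groups. The mean log2 ratio of *CLDN1* to *CLDN4* was 3.22 higher in LV-ATF7 than in LV-NC. That of *OCLN* to *MARVELD2* differed by -0.60, a larger fall of *OCLN*. For the scaffolds, the log2 ratio of *CGN* to *TJP1* differed by 1.05. The log2 ratio of *F11R* to *TJP1* differed by 0.62 and that of *CLDN4* to *CLDN7* by -0.51. None of these ratios overlapped between groups, and each had an exact permutation p of 0.10 (two-sided, adjusted p = 0.10 over the 6 ratios computed), the smallest possible.

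Another 6 claudin-family genes of a list of 22 had a row, and 1 rose and 5 fell, beside 34.7% of all genes called higher and 32.9% called lower. *CLDN16*, best known for magnesium handling in the kidney, had 7, 0 and 2 counts in LV-NC and 470, 413 and 330 in LV-ATF7. It was at or near 0 in the control libraries and present in every LV-ATF7 library (log2 fold change 7.0, SE 0.49, edgeR adjusted p = 1.13e-05, a value that depends on the prior count). *CLDN6*, a claudin of embryonic epithelia, had 22, 53 and 38 counts in LV-NC and 1, 0 and 2 in LV-ATF7, a ratio of LV-NC over LV-ATF7 of 38.1 (95% exact interval 12.7 to 187, which covers counting error only). *CLDN9* fell by 2.01, *CLDN3* by 1.54, *CLDND1* by 0.66 and *CLDN15* by 0.45 on the log2 scale (edgeR adjusted p from 7.24e-04 to 0.0151). *CLDN9* (6.45 and 1.59 CPM on average) and *CLDN3* (2.17 and 0.739 CPM) were low in both groups. Other annotated genes shared 16.2% of the exon bases of *CLDND1*.

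Several of these genes lie next to each other, a grouping made after their values were seen. *CLDN1* on the minus strand and *CLDN16* on the plus strand point away from each other with 65 bases between their annotated starts, and both rose. *MARVELD2* and *OCLN* lie 47961 bases apart on the same strand of chromosome 5, and both fell. *CLDN9* and *CLDN6* converge on chromosome 16 with 206 bases between them, and both fell. *CLDN3* and *CLDN4* lie 29271 bases apart on chromosome 7, and there *CLDN3* fell (log2 fold change -1.54) while *CLDN4* did not pass the test. No exon bases were shared within the *CLDN1* and *CLDN16* pair. The 65 bases between them carried 80.0% G or C and are shown because they separate the most increased member from its neighbor (RefSeq sequence, GRCh38.p14, chr3:190322476-190322540, minus strand, 5′ to 3′, with no capitals because no searched motif was found).
CLDN1 to CLDN16: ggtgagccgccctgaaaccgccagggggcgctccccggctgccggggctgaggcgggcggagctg

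The 250 bases before each RefSeq transcript start were searched on both strands for 4 motifs. These were the cAMP response element TGACGTCA, to which the ATF family binds, and the AP-1 element, searched loosely as TGANTCA with any base at N. The others were the grainyhead element AACCGGTT and the E-box CAGGTG, a site of Snail and ZEB repressors. Windows were matched for 8 of the 9 members (13 windows), with none for *F11R*. The cAMP response element occurred in 1 of the 13 member windows (*CLDN7*) and in 1.65% of 35116 windows overall. AP-1 elements occurred in 1 of the 13 member windows (*CLDN4*), beside 6.57% of all windows. E-boxes occurred in 4 of the 13 (*CLDN7*, *OCLN* and *TJP1*), beside 17.5% of all windows. The grainyhead element was in no member window and in 0.117% of all windows. The *CLDN1* window held none of the 4 motifs. A match is a description of the letters and does not show binding. Matches in the *CLDN7*, *CLDN4*, *OCLN* and *TJP1* windows are shown with 10 bases on either side, capitals marking the matched motif (GRCh38.p14, 5′ to 3′ on the strand of the gene). They are the cAMP response element of *CLDN7* (chr17:7262577-7262604, minus strand), the AP-1 element of *CLDN4* nearer to the start (chr7:73830825-73830851, plus strand) and E-boxes of *OCLN* (chr5:69492504-69492529, plus strand) and *TJP1* (chr15:29969122-29969147, minus strand).
CLDN7 cAMP response element: gtcccttcggTGACGTCAggtcatcctc
CLDN4 AP-1 element: gactggatagTGACTCAgggacccggg
OCLN E-box: atccgagtttCAGGTGaattggtcac
TJP1 E-box: ggccggcgcgCAGGTGgcccggcctc
Of the genes with an E-box in a window, *OCLN* and *TJP1* fell and *CLDN7* rose. The *CLDN7* window held more E-box matches than any other member window, and these are not shown.

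The wider tight junction machinery was described from 8 lists by role, which held 98 genes, of which 69 had a row and all 69 were tested. In that set 54 genes were called (23 higher and 31 lower), or 78.3%, beside 67.6% of all genes. The median log2 fold change was -0.24. Among MARVEL proteins and angulins 1 of 3 rose and 2 fell, beside 34.7% of all genes called higher and 32.9% called lower. *MARVELD1* rose 6.28-fold, from 37.2 ± 4.1 to 234 ± 17.0 CPM (edgeR adjusted p = 1.72e-06). *MARVELD3*, the closest relative of occludin and tricellulin, fell by 0.63 and *LSR*, the angulin that places tricellulin at tricellular contacts, by 0.81 in log2 units (edgeR adjusted p = 5.44e-04 and 0.00542). Of the exon bases of *MARVELD3*, 18.1% were shared with *PHLPP2* and *AC009097.2*. Occludin, tricellulin, *MARVELD3* and *LSR*, grouped here after their values were seen, fell. *MARVELD1*, a MARVEL protein not established as a strand component, rose. Both junctional immunoglobulin genes with a row fell, beside 32.9% of all genes called lower. Among them was *CXADR*, the coxsackievirus and adenovirus receptor (log2 fold change -1.06, edgeR adjusted p = 5.83e-05).

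Plaque scaffolds moved in both directions, with 7 of 12 higher, 3 lower and 2 not called, beside 34.7% of all genes higher and 32.9% lower. *TJP3*, which encodes ZO-3, was at 13.9, 9.86 and 11.3 CPM in LV-NC and 77.0, 76.0 and 83.7 CPM in LV-ATF7. It rose 6.75-fold (log2 fold change 2.75, edgeR adjusted p = 3.18e-06) while its paralog *TJP1* fell. *AMOT* rose by 1.25 and *YBX3*, the ZO-1-binding factor ZONAB, by 1.19, and *MAGI1* fell by 1.12 on the log2 scale. Polarity genes were called in 9 of 15 (5 higher and 4 lower), or 60.0%, which is below the 67.6% of all genes. They were led by *DLG1* (2.01), *PARD3* (1.61) and *PRKCZ* (1.30) among those that rose and *PALS1* (-1.17) among those that fell. Other annotated genes shared 12.3% of the exon bases of *PRKCZ*. Of 11 actin and trafficking regulators, 3 rose and 5 fell (72.7% called, beside 67.6% of all genes). *MYLK*, the kinase that contracts the junctional actomyosin ring, had a log2 fold change of 1.71. Its level was low in both groups, at 1.53 ± 0.405 CPM in LV-NC and 5.01 ± 0.474 CPM in LV-ATF7. The log2 fold change of *MICALL2*, which takes part in occludin recycling, was -1.54, that of *ARHGAP17* -1.20 and that of *ARHGEF11* -0.67. Each gene given as changed here had an edgeR adjusted p of 0.00294 or less.

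Among 9 claudin partners and turnover genes, 2 rose and 4 fell, or 66.7% called beside 67.6% of all genes. The protease *PRSS8* rose by 1.01, whereas the protease *ST14* (matriptase) fell by 1.49 and the kinase *WNK4* by 1.78 on the log2 scale. Of 11 transcription factors known to act on claudin and occludin genes, 4 rose, 6 fell and *SNAI2* was not called. That was 90.9% called, beside 67.6% of all genes. *ELF3* (1.5) and *KLF5* (1.09) rose, and *OVOL1* (-2.16) and *KLF4* (-1.11) fell. Other annotated genes shared 27.1% of the exon bases of *OVOL1* and 18.5% of those of *ELF3*. The repressors *SNAI1* and *ZEB1*, named here after their values were seen, had 23, 76 and 56 counts and 29, 28 and 35 counts in LV-NC, and 4, 2 and 3 counts and 2, 3 and 3 counts in LV-ATF7. Both fell, with log2 fold changes of -4.06 and -3.48 (edgeR adjusted p = 4.76e-04 and 9.63e-05), on few counts in LV-ATF7. The grainyhead factor *GRHL2*, also named after its values were seen, was at 92.8 ± 8.32 CPM in LV-NC and 197 ± 5.01 CPM in LV-ATF7 (edgeR adjusted p = 3.31e-05). The grainyhead factors *GRHL1* (22.1 ± 0.508 and 11.9 ± 0.541 CPM) and *GRHL3* (14.4 ± 9.74 and 4.85 ± 0.279 CPM) went the other way. Their edgeR adjusted p was 2.50e-04 and 0.0411, and the groups of *GRHL3* overlapped.

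**Figure D4:**
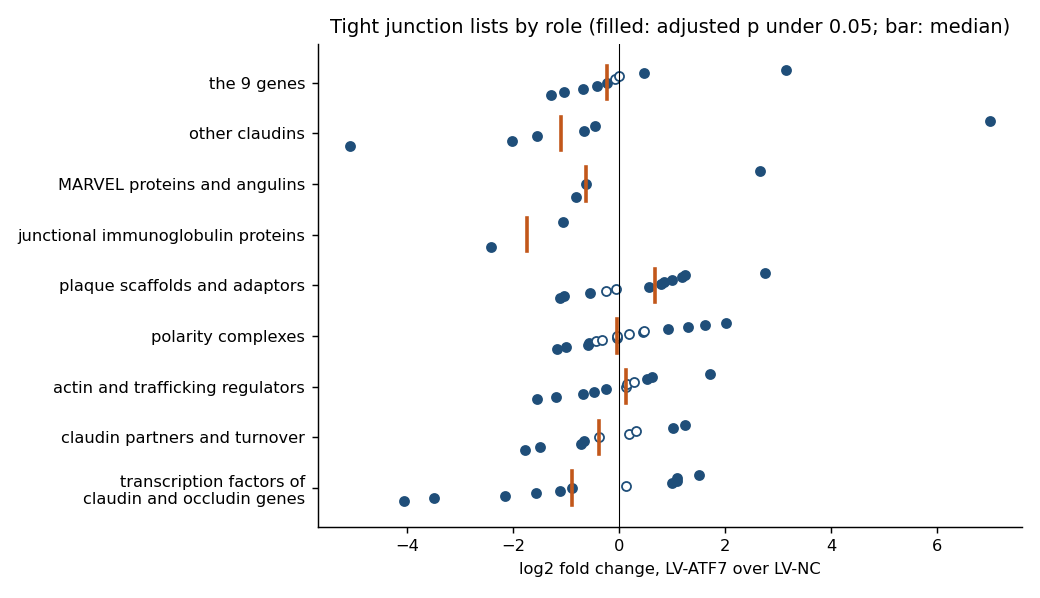
Log2 fold change (LV-ATF7 over LV-NC) of each tested gene, grouped by role in the tight junction, with filled points for an adjusted p under 0.05 and an orange bar for the median. Points of most groups lie on both sides of 0, with 7 plaque scaffolds higher and 3 lower, while both junctional immunoglobulin genes are lower. Over all genes tested, 34.7% were called higher and 32.9% lower.

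The genes outside these lists whose pattern across the 6 libraries was most like that of *CLDN1* were *EPB41L1*, *CLMN* and *RUNX2*, with root mean square differences of 0.0811, 0.0836 and 0.0862 in centered log2 CPM among 11080 genes searched. *EPB41L1* was at 103 ± 31.6 CPM in LV-NC and 853 ± 24.2 CPM in LV-ATF7. For *OCLN* the nearest were *SELENOT* (0.0446), *OSER1* (0.0451) and *ISCA1* (0.0494), and *SELENOT* was at 120.5 ± 9.96 and 48.2 ± 0.587 CPM. These measures describe likeness over 2 groups of libraries and carry no test.

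The fold changes of *CLDN1*, *CLDN7*, *OCLN*, *TJP1* and *MARVELD2* kept their direction and stayed past the threshold in each of 13 alternative analyses. *CLDN1* ranged from 2.98 to 3.37, *CLDN7* from 0.30 to 0.50, *OCLN* from -1.45 to -1.26, *TJP1* from -1.19 to -0.96 and *MARVELD2* from -0.85 to -0.66 on the log2 scale.

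**Figure D5:**
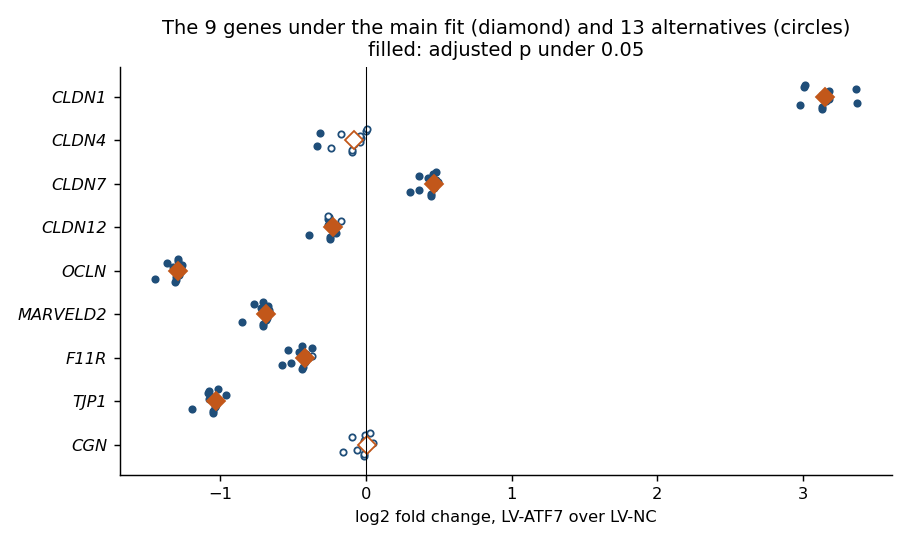
Log2 fold change of the 9 genes under the analysis reported (diamond) and 13 alternatives (circles: other scaling, filters, tools, a replicate block and leaving out each library), filled where the adjusted p was under 0.05. *CLDN1* stays between 2.98 and 3.37, and the values of *CGN* lie on both sides of 0.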

How the data were processed

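Polyadenylated RNA of 6 HaCaT libraries was sequenced. The deposited table, made by the authors, gives counts and FPKM values for each gene, on GRCh38 per the labels. The aligner, counter, annotation and strandedness are not given in the sources used here, and the table's lowest summed count was 51. Deposited fold-change and p-value columns were not used. Counts were tested with edgeR 4.0.16 (R 4.3.3; TMM scaling, filterByExpr, quasi-likelihood test, Benjamini-Hochberg over 12462 genes, threshold 0.05). CPM used TMM scaling, and positions and exon lengths came from GENCODE 29. Shares and ratios were tested with exact permutation tests (scipy 1.17.1). Deposited FPKM, DESeq2 1.42.0 and limma 3.58.1 served as alternatives. Named were the 9 members, *ATF7*, all other claudins with a row, and in every other list up to 4 called genes of largest change with at least 50 counts on average and no overlap, besides the 3 genes most like *CLDN1* and *OCLN*. Members and lists were chosen with earlier results of these data known. The test script was checked on simulated counts in which 200 of 12462 genes were changed. Of its calls 9.95% were false, above the threshold of 0.05. It called 75 of 99 changes of 1 log2 unit and 97 of 100 changes of 2 log2 units. In the data 67.6% of genes were called, so the simulation differed from the data in the share of changed genes. Calls near the threshold are therefore less firm. A few named genes and the results that need them are not reported here.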

Additional observations from a re-analysis of the deposited data

How the results depend on the processing

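Members called numbered 4 with a fold change of at least 1.5, 6 with the replicate block and 5 to 8 when 1 library was left out. Calls over all genes ranged from 6588 to 10391 and in the wider list from 46 to 64 (8210 and 52 with the replicate block). Deviations of libraries with the same replicate number were little correlated (0.058, -0.021 and 0.065). These values cannot settle whether the libraries were paired, because LV-NC replicate 1 stood apart from its group. The library name given for LV-NC replicate 3 also carries a number other than its replicate number. Of the member calls the block ended that of *CLDN12* (-0.23, edgeR adjusted p = 0.0734). *CLDN12* also missed the threshold with upper quartile scaling (-0.21, adjusted p = 0.0619) and ranged from -0.26 to -0.17 when 1 library was left out. *CGN* changed sign with DESeq2 (-0.012), at least 10 counts in every library (-0.011), library size only (-0.15), which moved the median of all genes by -0.16, limma voom (-0.059) and without 1 library (-0.096 to 0.046). *CLDN4* passed the threshold with limma voom and quality weights (-0.33, adjusted p = 1.35e-04), and ranged from -0.31 (without LV-NC replicate 1) to 0.0052 (without LV-NC replicate 3). *F11R* ranged from -0.53 to -0.37 when 1 library was left out and was -0.58 with library size only. Without division by length, the share difference of *CLDN7* was -9.25 percentage points and that of *CLDN12* -8.32, and with deposited FPKM they were -12.7 and -4.29. Other share and ratio differences kept their direction. Where a call was lost, the cause was not tested. The design of 3 against 3 libraries limits exact tests to p = 0.10 at best, and without LV-NC replicate 1 the number of members called was 8.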
